A study of Homo sapiens with 60 samples.

Results

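The hypoxia response and glycolysis genes are a set of 34 human genes chosen by symbol. They comprise 16 glycolytic enzymes, 5 genes of glucose entry and flux regulation (SLC2A1, SLC2A3, PFKFB3, PFKFB4 and PDK1), 12 other targets of hypoxia-inducible factor (VEGFA, CA9, ADM, BNIP3, BNIP3L, NDRG1, ANKRD37, EGLN1, EGLN3, KDM3A, P4HA1 and MXI1) and the factor's subunit HIF1A. All 34 had a row in the table of 60675 genes, and 33 were among the 16484 genes that passed the filter on low counts. The exception was the glucose transporter gene SLC2A3, which had 2 counts over 57 libraries. RNA was sequenced from HT29, an established line of human colorectal adenocarcinoma cells, after 24 h with a hot-water plant extract or with vehicle. Single herbs were Citri Unshius Pericarpium (citrus), Cimicifugae Rhizoma (cimicifuga), Bupleuri Radix (bupleurum) and Aconiti Lateralis Radix Preparata (aconite). Mixed formulas were Banhasasim-tang, Bojungikgi-tang and Yijung-tang. Doses were 500 (high), 100 (medium) and 20 µg/mL (low), and vehicle was 0.1% DMSO per the sample labels. The labels give no DMSO content for the extract groups, so a matched solvent is not shown. Vehicle and 6 extracts had 3 libraries per group, which gave 19 groups and 57 libraries, and Bojungikgi-tang had 1 library per dose. All groups are the same tumour line in serum-containing medium, the labels name no lowered oxygen for any group, and they do not say that replicates were separate cultures. The p-values therefore rest on differences among libraries that may be technical repeats. The comparisons ask whether an extract moved the genes of glycolysis, and whether the other targets of hypoxia-inducible factor moved with them.

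Hypoxia-inducible factor is a dimer whose alpha subunit, made from HIF1A, is hydroxylated by the EGLN prolyl hydroxylases while oxygen is present and is then destroyed. When oxygen is scarce the subunit persists and switches on genes for glucose uptake, glycolysis, blood vessel growth, acid export and mitophagy. Since much of this control acts on the protein, HIF1A messenger RNA is not itself a measure of the factor's activity. Many tumour lines, those of the colon included, run glycolysis with oxygen present, and growth factor and nutrient pathways also drive the same enzyme genes.

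The factor binds short DNA motifs with the core ACGTG or GCGTG. In the RefSeq promoter table (GRCh38.p14), 30 of the 34 genes had at least 1 window of 300 bases, from 250 before to 50 after a start site. SLC2A3, VEGFA, BNIP3L and NDRG1 were not in it. Searched on both strands, with CACGTG counted once per strand, either core was present in 38 of the members' 56 windows (67.9%) and in 48.4% of all 35116 windows. ACGTG alone was in 23 of the members' windows (41.1%) and in 21.4% of all windows. A match is a string of letters and was not tested as a binding site. Sequences of 4 members are shown because their calls under aconite differed although each holds a core. HK2 and ENO2 were higher at the high dose than in vehicle, and no difference was called for CA9 and BNIP3. Each run is the 250 bases before the first listed RefSeq start, read 5′ to 3′ on the gene's strand, with matches in capitals (chr2:74833877-74834126 plus strand for HK2, chr12:6914330-6914579 plus strand for ENO2, chr9:35673678-35673927 plus strand for CA9 and chr10:131981924-131982173 minus strand for BNIP3).
HK2: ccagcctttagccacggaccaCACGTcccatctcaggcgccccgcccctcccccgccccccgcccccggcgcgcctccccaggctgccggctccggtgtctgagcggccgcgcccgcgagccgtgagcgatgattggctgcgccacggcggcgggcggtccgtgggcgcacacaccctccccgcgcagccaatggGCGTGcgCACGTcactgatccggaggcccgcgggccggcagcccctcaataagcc
ENO2: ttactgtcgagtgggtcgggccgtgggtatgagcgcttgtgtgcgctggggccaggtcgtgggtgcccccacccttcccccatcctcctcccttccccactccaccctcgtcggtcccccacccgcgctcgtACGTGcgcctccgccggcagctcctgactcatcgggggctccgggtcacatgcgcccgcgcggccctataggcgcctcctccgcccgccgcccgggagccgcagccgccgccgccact
CA9: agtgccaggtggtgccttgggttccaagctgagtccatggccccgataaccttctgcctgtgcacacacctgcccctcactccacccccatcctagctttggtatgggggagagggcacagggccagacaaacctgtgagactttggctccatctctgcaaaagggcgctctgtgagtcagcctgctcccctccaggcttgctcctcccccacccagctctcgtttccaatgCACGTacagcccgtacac
BNIP3: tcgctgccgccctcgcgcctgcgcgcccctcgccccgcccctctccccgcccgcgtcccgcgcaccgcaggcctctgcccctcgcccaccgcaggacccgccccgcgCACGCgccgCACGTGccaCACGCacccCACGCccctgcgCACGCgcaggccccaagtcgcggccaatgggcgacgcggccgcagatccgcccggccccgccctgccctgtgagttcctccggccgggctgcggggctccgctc
The HK2 run holds 3 matches, the BNIP3 run 6, and the ENO2 and CA9 runs 1 each.

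A library held 10.35 to 40.05 M counts (median 23.83 M). All 10 markers of intestinal epithelium were expressed, with summed levels of 10000 to 13500 counts per M (CPM), whereas those of fibroblasts, endothelium, leukocytes and erythroid cells summed to at most 6.59 CPM each. The libraries fell into sets by their label codes (vehicle alone, citrus with cimicifuga, bupleurum with aconite, Yijung-tang with Banhasasim-tang, Bojungikgi-tang alone), so each comparison with vehicle is also one between sets. Among the 57 libraries of replicated groups, the small cytoplasmic RNA RN7SL2 lay at 3.46 to 9.9 CPM in 15 (vehicle, and replicates 1 and 2 of citrus and cimicifuga). It lay at 40.7 to 236 CPM in the other 42, and at 44.8, 57.3 and 70 CPM in Bojungikgi-tang high, medium and low. For bupleurum, aconite and the formulas the difference in RN7SL2 and the contrast with vehicle cannot be told apart. Comparisons inside a set of replicated groups are therefore given beside those with vehicle. Library 2 of aconite high stood apart, with ribosomal protein genes at a median of 0.49 (log2) above its group mean, as did library 2 of Banhasasim-tang high, at 0.43. In vehicle these medians were 0.23, -0.08 and -0.15 in libraries 1 to 3. The rank correlation of a library's deviation from its group mean with exon length was -0.37, 0.24 and 0.32 in vehicle libraries 1 to 3. It was 0.29, -0.33 and 0.32 in aconite high. The part of this in the members' values was not tested.

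Per kb of exon, glycolytic enzymes spanned the widest range of levels. GAPDH, the glyceraldehyde phosphate dehydrogenase, stood highest, at a median of 944 CPM per kb over the 57 libraries, followed by ENO1 (enolase) at 333, ALDOA (aldolase) at 311, TPI1 (triose phosphate isomerase) at 296, PKM (pyruvate kinase) at 268 and LDHA (lactate dehydrogenase) at 155. Neighbouring ranges from ENO1 to PKM overlapped, so the order of these 4 is not separated by the spread between libraries. The hexokinase and phosphofructokinase genes, which act at the entry of the pathway, were lower: PFKP stood at 26.7, HK1 at 23.8, PFKM at 10.1, HK2 at 9.96 and PFKL at 9.92. The main glucose transporter gene SLC2A1 reached 114 CPM per kb. Among the other targets, CA9, which encodes a surface carbonic anhydrase, led at 37.2, VEGFA, the angiogenic growth factor, stood at 5.05, and the mitophagy gene BNIP3 and ANKRD37 lay under 1, at 0.564 and 0.289. These orders depend on the length used, which joins all annotated exons of a gene (1670 bases for CA9, 14431 for VEGFA). In CPM without length, the median of VEGFA (72.9) was above that of CA9 (62.1). That of PKM (2300) was then above those of ENO1 (1760), ALDOA (1220) and TPI1 (799). ANKRD37 had 4 to 39 counts per library, so its fold changes are imprecise. Named pseudogenes of BNIP3 held 34% of the reads given to BNIP3 and those pseudogenes together, and those of SLC2A3 held 99.3%, so the values of both are uncertain. For every other member the share was at most 0.391%. PGK1, ENO2, EGLN3 and PFKFB4 overlap another named gene on the same strand (ATP7A, LRRC23, SPTSSA and UCN2), and reads of genes on the opposite strand may also be included, since the strand setting of the counting is not given in the sources used here.

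**Figure D1:**
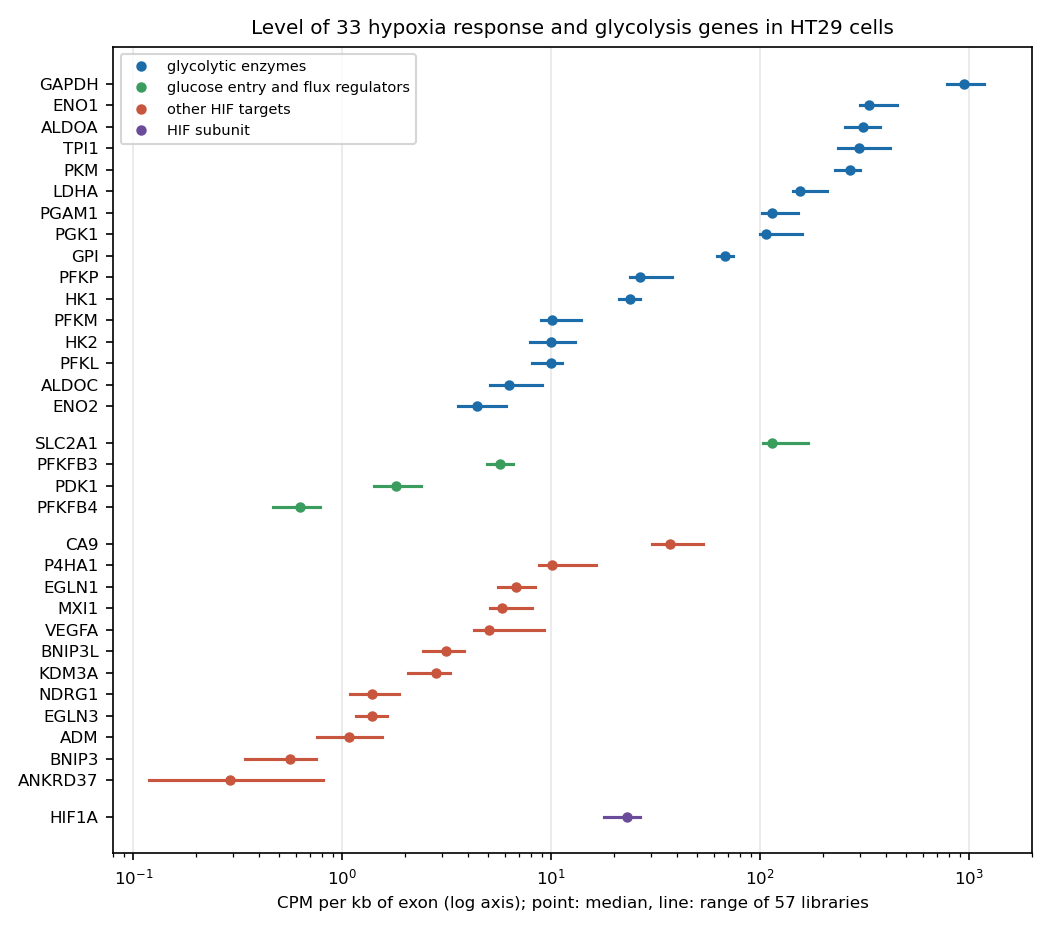
Median level (point) and range over 57 libraries (line) of the 33 tested genes in CPM per kb of exon on a log axis, coloured by role. GAPDH is highest at 944 and ANKRD37 lowest at 0.289.

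At the high dose of aconite, 15 of the 33 tested genes were higher than in vehicle and 1 was lower. Over all 16484 genes, 8.58% were called higher and 7.29% lower (quasi-likelihood test in edgeR, called where the p-value adjusted by Benjamini-Hochberg was under 0.05). Each p-value and SE rests on a spread taken over all 57 libraries, not on that of the compared groups. Replicates did not differ equally in all groups. Their chi-square per degree of freedom was 10.1 to 71.5 in aconite high and 4.04 to 17.3 in vehicle. It was 8.62 to 21.9 in aconite low, 4.3 to 6.69 in bupleurum high and 2.6 to 8.24 in cimicifuga high. The part of this unequal spread in the calls was not tested. In a fit of the compared groups alone, VEGFA was the only member that kept its call (edgeR adjusted p = 0.0328), with 181 of all genes called. The calls covered 9 of 16 glycolytic enzymes, 2 of 4 tested genes of glucose entry and flux (SLC2A1 and PDK1), 3 of 12 other targets (VEGFA, P4HA1 and MXI1) and HIF1A. The gene called lower was EGLN1, the main oxygen-sensing prolyl hydroxylase. The median log2 fold change was 0.19 for the glycolytic enzymes, 0.32 for glucose entry and flux, -0.13 for the other targets and 0.00 for all tested genes. That of 40 ribosomal protein genes, read as a sign of RNA quality, was 0.07, with 25 of 40 above 0 and 1 called higher. Each group held a library with high ribosomal protein genes, vehicle 1 and aconite high 2. This median therefore does not show that RNA quality was equal. In bulk RNA, a change in the share of cells in a given state and a change in RNA per cell cannot be told apart.

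VEGFA had the largest difference of all 33. Its levels were 65, 73 and 67.2 CPM in the vehicle libraries and 134, 101 and 127 CPM in aconite high. Every treated library lay above every vehicle library, with library 2 the lowest of the treated 3. The means were 68.4 ± 4.1 and 121 ± 17 CPM (SD, n = 3 each), a log2 fold change of 0.82 (SE 0.07, edgeR adjusted p = 1.79e-13).

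SLC2A1, which brings glucose into the cell, measured 557, 540 and 548 CPM in vehicle and 802, 717 and 782 CPM in aconite high. The groups did not overlap. The log2 fold change was 0.48 (SE 0.04, edgeR adjusted p = 1.74e-12). In the fit of the compared groups alone the edgeR adjusted p was 0.0769. PDK1, the kinase that holds pyruvate dehydrogenase inactive, read 22.8, 24.1 and 24.3 CPM in vehicle against 30, 31.1 and 32.1 CPM, a difference of 0.39 on the log2 scale (SE 0.09, edgeR adjusted p = 0.00115). For PDK1 vehicle had the lowest mean of all 19 groups (23.7 CPM) and aconite high the highest (31.1 CPM). Single libraries of other extracts reached that level, among them bupleurum medium library 2 (35.5 CPM) and Yijung-tang low library 3 (32.1 CPM). The regulators of fructose bisphosphate PFKFB3 and PFKFB4 had log2 fold changes of 0.08 and 0.26 that missed the threshold, with overlapping groups.

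Among the 16 enzymes the largest rises in this comparison were those of PFKP and ENO2. PFKP, the platelet-type phosphofructokinase, went from 115, 126 and 123 CPM to 176, 162 and 183 CPM (log2 fold change 0.52, SE 0.05, edgeR adjusted p = 3.07e-10). ENO2, the neuronal-type enolase, went from 18, 18.2 and 18.7 CPM to 26, 21.7 and 25.2 CPM (0.42, SE 0.08, edgeR adjusted p = 9.26e-05). In both, the 2 groups were separate. With the compared groups alone the edgeR adjusted p-values were 0.0618 for PFKP and 0.158 for ENO2. PFKM, the muscle-type isoform, read 65.5, 71.1 and 68.5 CPM in vehicle and 82.8, 102 and 85.8 CPM in aconite high (0.39, SE 0.06, edgeR adjusted p = 6.79e-07). For PFKM vehicle had the lowest mean of all 19 groups (68.3 CPM) and aconite high the highest (90.2 CPM). ALDOC, an aldolase of low level here, read 18.5, 17.1 and 18 CPM against 19.9, 26.3 and 21.6 CPM (0.33, SE 0.08, edgeR adjusted p = 0.0021). PFKM and ALDOC were both highest in library 2, and their groups did not overlap.

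HK2, the inducible hexokinase, measured 50.6, 59.8 and 60.4 CPM in vehicle and 78.5, 59.3 and 75.8 CPM in aconite high. Library 2 lay inside the vehicle range, while the other two were above it. The log2 fold change was 0.33 (SE 0.07, edgeR adjusted p = 8.19e-04). With the compared groups alone the edgeR adjusted p was 0.415. LDHA, which turns pyruvate into lactate, showed the opposite layout: 955, 921 and 950 CPM in vehicle against 994, 1290 and 972 CPM, so that libraries 1 and 3 lay just above vehicle and library 2 far above. Its log2 fold change of 0.21 (SE 0.06, edgeR adjusted p = 0.0209) was not called without that library.

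ENO1 followed the pattern of LDHA, at 1850, 1750 and 1730 CPM in vehicle and 1960, 2380 and 1840 CPM in aconite high, with library 3 inside the vehicle range. Its log2 fold change was 0.21 (SE 0.07, edgeR adjusted p = 0.0197). GAPDH was at 2980, 2810 and 2920 CPM in vehicle and 3320, 3520 and 3230 CPM in aconite high, without overlap, also a log2 difference of 0.21 (SE 0.07, edgeR adjusted p = 0.0222). The calls of GAPDH, ENO1, LDHA and P4HA1 were lost without aconite high library 2 and also without vehicle library 2, and that of ENO1 also without vehicle library 3. When 4 libraries that stood apart (vehicle 1, aconite high 2, Banhasasim-tang high 2 and bupleurum medium 2) were left out together, LDHA, ENO1, MXI1, P4HA1 and EGLN1 were not called and 13 members were. Over all genes 3009 were called in that fit. The part of RNA quality in these genes was not tested. HK1 had the smallest called rise, 0.16 (SE 0.06, edgeR adjusted p = 0.0405). It was lost when vehicle library 1, aconite high library 1 or aconite high library 3 was left out. With no filter on low counts, HK1, GAPDH, ENO1, LDHA and EGLN1 were not called and 11 members were, with 2172 of all genes called. The 7 enzymes not called were GPI, PFKL, ALDOA, TPI1, PGK1, PGAM1 and PKM, with log2 fold changes from -0.02 (ALDOA) to 0.18 (PGK1). PGK1, phosphoglycerate kinase, read 550, 874 and 600 CPM in aconite high against 604, 581 and 594 CPM in vehicle, so only library 2 lay far above.

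**Figure D2:**
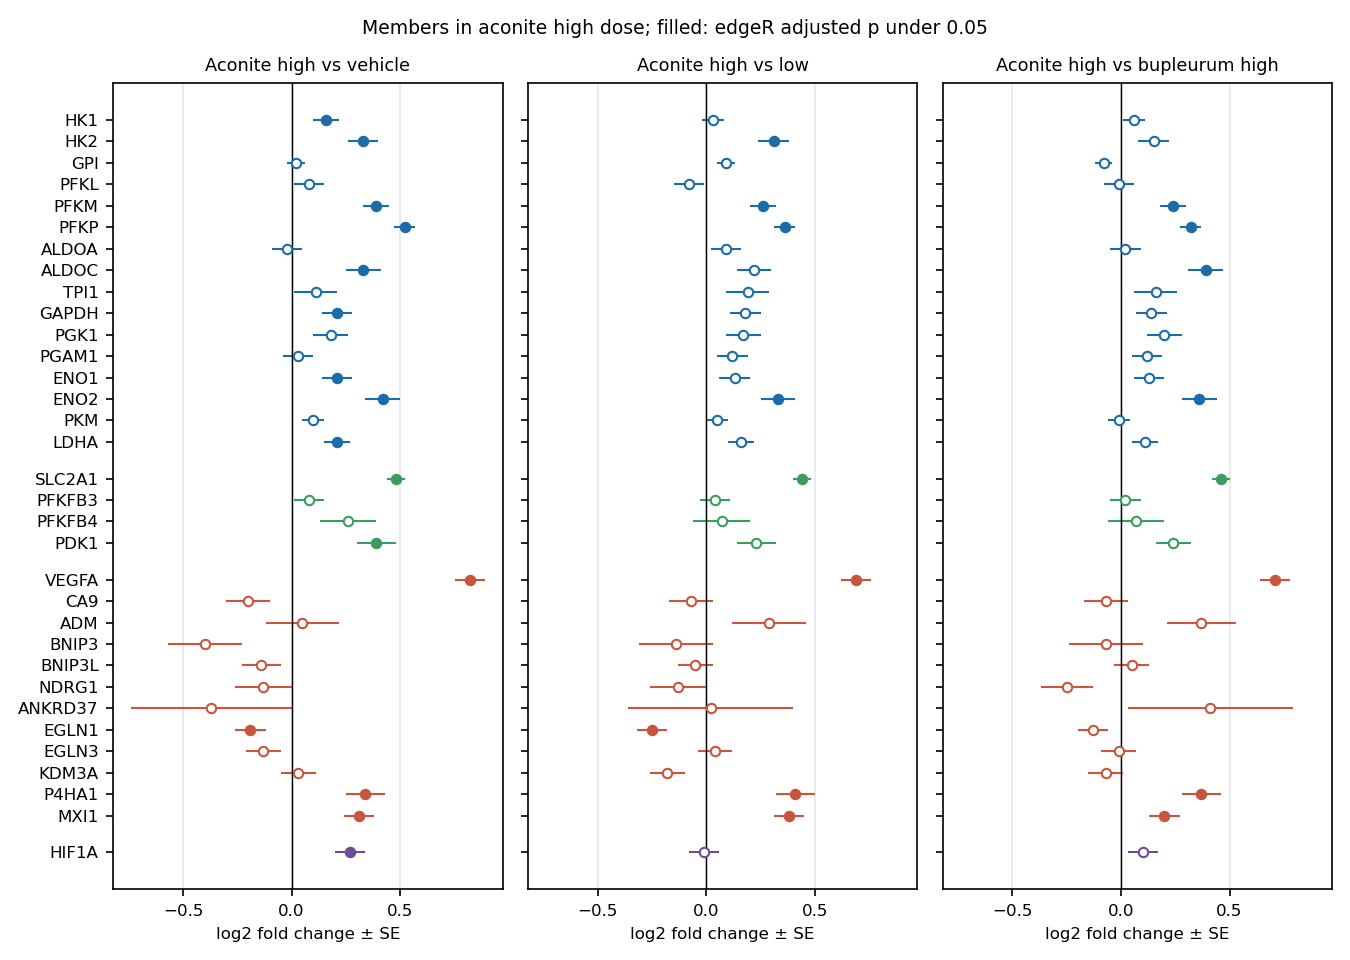
Log2 fold change (x axis) with its SE for each tested gene, coloured by role, in aconite high against vehicle, against aconite low and against bupleurum high. Filled points passed an edgeR adjusted p of 0.05, and VEGFA lies farthest to the right in all 3 panels, at 0.82, 0.69 and 0.71.

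Of the 12 other targets, 8 were not called in aconite high against vehicle. CA9 stood at 85.6, 68.9 and 62 CPM in vehicle and 59, 69 and 60 CPM in aconite high, with the groups overlapping and vehicle library 1 the highest of the 6. Its log2 fold change was -0.20 (SE 0.10, edgeR adjusted p = 0.192). BNIP3 had -0.40 (SE 0.17, edgeR adjusted p = 0.108) at 1.82 to 3.99 CPM over both groups. The mitophagy receptor gene BNIP3L, the stress gene NDRG1, the prolyl hydroxylase EGLN3 and ANKRD37 had log2 fold changes of -0.14, -0.13, -0.13 and -0.37. The vasodilator peptide gene ADM and the histone demethylase KDM3A had 0.05 and 0.03. These p-values do not show that the genes stayed level, and for ANKRD37 the SE was 0.37.

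The 4 that were called went in both directions. P4HA1, a collagen prolyl hydroxylase subunit, read 32.8, 29.4 and 31.1 CPM in vehicle and 33, 50.4 and 35.5 CPM in aconite high, with library 1 barely above the highest vehicle library (log2 fold change 0.34, SE 0.09, edgeR adjusted p = 0.00651). MXI1, an antagonist of MYC, read 25.4, 25.9 and 26.5 CPM against 29.5, 37.4 and 30.1 CPM (0.31, SE 0.07, edgeR adjusted p = 7.88e-04). EGLN1 read 47.4, 47.2 and 49.2 CPM against 41.8, 40.2 and 43.4 CPM. Its log2 difference of -0.19 (SE 0.07, edgeR adjusted p = 0.0482) was lost in 5 of the 6 fits that each left out a library, all but the one without aconite high library 3.

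Between the high and low dose of aconite, a comparison that vehicle does not enter, 8 genes were higher and 1 was lower of 33 tested, where 5.81% of all genes were called higher and 5.04% lower. All 40 ribosomal protein genes had a positive log2 fold change here (median 0.24), and 3 were called higher (RPL27, RPL4 and RPS24). Their part in the members' calls was not tested. The genes called higher were HK2 (log2 fold change 0.31), PFKM (0.26), PFKP (0.36), ENO2 (0.33), SLC2A1 (0.44), VEGFA (0.69), P4HA1 (0.41) and MXI1 (0.38). EGLN1 was called lower, at -0.25. Their edgeR adjusted p-values ran from 3.56e-11 (SLC2A1) to 0.0143 (EGLN1). None of these calls was kept in a fit of the compared groups alone, where 99 of all genes were called. P4HA1 was lost without aconite high library 2, and EGLN1 without that library, without aconite low library 1 or with no filter on low counts. The count was 14 in place of 9 without aconite high library 1 or without library 3. The calls over all genes also grew in those fits, to 2995 and 2676, from 957 higher and 830 lower. GAPDH, LDHA, ENO1 and PDK1 were not called in this comparison, at 0.18, 0.16, 0.13 and 0.23.

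SLC2A1 and PFKP rose in steps. SLC2A1 measured 574, 556 and 564 CPM at the low dose and 666, 632 and 675 CPM at the medium dose, before the 717 to 802 CPM of the high dose. The 3 doses did not overlap, and medium against vehicle gave a log2 fold change of 0.26 (SE 0.04, edgeR adjusted p = 2.72e-05). PFKP measured 130, 140 and 136 CPM at low, 148, 147 and 151 CPM at medium and 162 to 183 CPM at high dose, with 0.29 for medium against vehicle (SE 0.05, edgeR adjusted p = 2.93e-04). VEGFA did not follow that course: it stood at 71.6, 77.4 and 75.9 CPM at low and 75.1, 69.6 and 70.4 CPM at medium dose, and only the high dose lay apart. HK2 measured 57.1, 56.6 and 59.5 CPM at low and 63, 63.2 and 63.8 CPM at medium dose. For LDHA the values were 945, 952 and 1010 CPM at low and 1020, 1000 and 1040 CPM at medium dose, where no difference from vehicle was called.

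**Figure D3:**
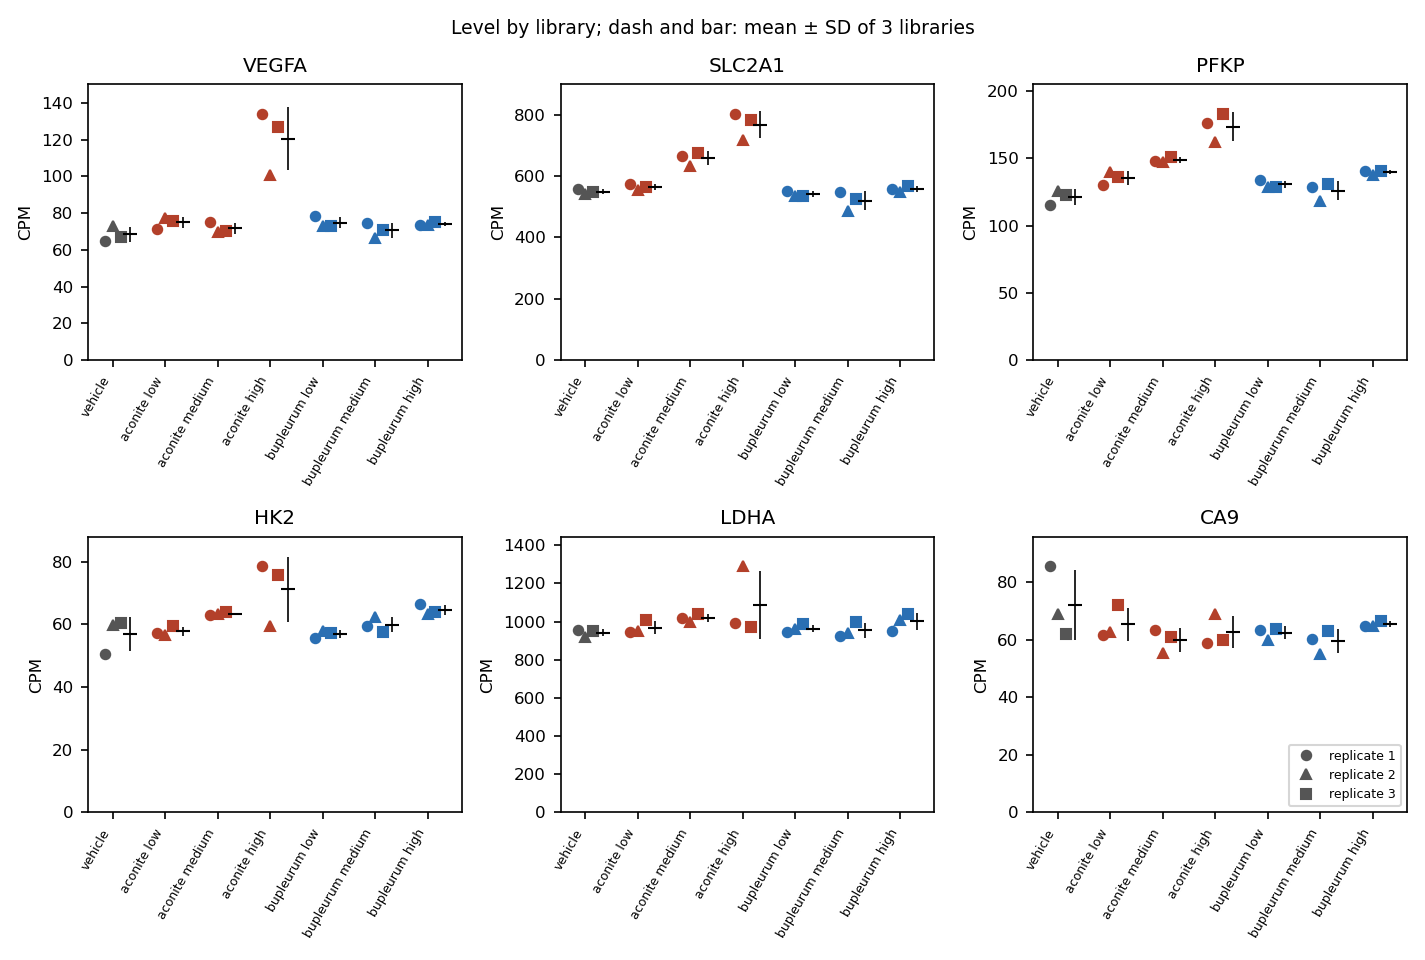
CPM of 6 genes in each library of vehicle, aconite and bupleurum at 3 doses, with replicates as symbols and the mean ± SD of 3 libraries beside them. VEGFA, SLC2A1 and PFKP in aconite high lie above all other libraries drawn, while CA9 overlaps across the groups.

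At the medium dose of aconite against vehicle, 3 members were called higher (SLC2A1, PFKP and HIF1A) and 1 lower (BNIP3L, -0.27), with 2.47% and 2.2% of all genes called. BNIP3L lost its call in each of the 6 fits that left out a library and with the replicate block (edgeR adjusted p = 0.0503), and HIF1A without vehicle library 1. At the low dose HIF1A was the only member called, where 0.698% of all genes were called higher.

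Aconite was set against bupleurum at the high dose because both belong to 1 library set. In that comparison 8 of 33 members were higher in aconite and no member was called lower, where 5.91% of all genes were called higher and 3.95% lower. The ribosomal protein genes again all had positive log2 fold changes (40 of 40, median 0.25, 3 called higher), and their part was not tested. The members called by edgeR were PFKM (0.24), PFKP (0.32), ALDOC (0.39), ENO2 (0.36), SLC2A1 (0.46), VEGFA (0.71), P4HA1 (0.37) and MXI1 (0.20). The DESeq2 count was 9, with 1871 of all genes called. None of the edgeR calls was kept in a fit of the compared groups alone, where 112 of all genes were called. VEGFA measured 73.6, 73.4 and 75.4 CPM in bupleurum high against the 101 to 134 CPM of aconite high. SLC2A1 measured 558, 549 and 566 CPM in bupleurum high, beside the 540 to 557 CPM of vehicle. HK2 stood at 66.5, 63.4 and 64 CPM in bupleurum high and was not called different from aconite high (0.15, SE 0.07, edgeR adjusted p = 0.183). PFKM and P4HA1 lost their calls without aconite high library 2, and MXI1 without that library or either of bupleurum high libraries 1 and 2. PFKM and MXI1 also lost theirs with no filter on low counts, and MXI1 with the replicate block (edgeR adjusted p = 0.0505).

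The difference between the extracts in their response to dose was tested itself, as the high against low change of aconite minus that of bupleurum. It passed for VEGFA (0.71, SE 0.09, edgeR adjusted p = 7.97e-07), SLC2A1 (0.40, SE 0.06, edgeR adjusted p = 1.08e-05), ALDOC (0.40, SE 0.11, edgeR adjusted p = 0.0359) and MXI1 (0.34, SE 0.09, edgeR adjusted p = 0.0385), that is 4 of 33 members, where 1.8% of all genes passed. PFKP (0.26) and ENO2 (0.35) missed the threshold, with edgeR adjusted p-values of 0.0541 and 0.0943. VEGFA and SLC2A1 kept their calls in all 12 fits that left out 1 library, while ALDOC and MXI1 each lost theirs in 8 and also with no filter on low counts. The same test passed for 0 members between cimicifuga and citrus, where 0.115% of all genes passed, and for 0 between Banhasasim-tang and Yijung-tang, where 0% did. At an unadjusted p under 0.05 the edgeR counts were 5 and 1, and no other tool was run for it. The share of all genes at that unadjusted p was not counted, so these 2 counts are not a result about the members.

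HIF1A itself was higher than vehicle at all 3 doses of aconite, and no difference was called between the high and low dose. It measured 97, 108 and 113 CPM in vehicle, 126, 130 and 131 CPM at low, 131, 128 and 132 CPM at medium and 125, 127 and 132 CPM at high dose. Every aconite library lay above every vehicle library. The log2 fold changes were 0.28 (low), 0.30 (medium) and 0.27 (high) against vehicle, with edgeR adjusted p-values of 0.0157, 0.00361 and 0.00318, and -0.01 (SE 0.07) between high and low. These 3 comparisons share the vehicle libraries, and the calls at the low and medium doses were lost without vehicle library 1, the lowest. The low-dose call was also lost without aconite low library 2 or 3. HIF1A was lowest in vehicle of all 19 groups, at a mean of 106 CPM, and highest in aconite medium, at 130 CPM. Against bupleurum high, at 120, 119 and 119 CPM, it was not called (0.10, SE 0.07, edgeR adjusted p = 0.364).

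At the high dose of the other extracts few members were called. In cimicifuga VEGFA was called higher than in vehicle, where 0.813% of all genes were called higher. VEGFA measured 88.4, 84.1 and 81.4 CPM in cimicifuga high, above the 65 to 73 CPM of vehicle without overlap (0.31, SE 0.07, edgeR adjusted p = 0.00491). The call was lost without vehicle library 1 or cimicifuga high library 1, and in a fit of the compared groups alone (edgeR adjusted p = 0.0691). These groups belong to different library sets, so set and extract cannot be told apart here. Cimicifuga low, of the same set as cimicifuga high, stood at 70.8, 69.8 and 74.7 CPM, and no difference between these doses was called. In bupleurum PFKP was called higher, at 141, 138 and 141 CPM against 115 to 126 CPM in vehicle, where 0.746% of all genes were called higher (0.20, SE 0.05, edgeR adjusted p = 0.0347). That call was lost in 5 of 6 fits that left out a library, and it too is one between library sets. Bupleurum low stood at 134, 129 and 129 CPM, and no difference between the high and low dose was called.

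Cimicifuga and citrus share a library set, and at the high dose 2 members were higher in cimicifuga, where 0.637% of all genes were called higher and 0.249% lower. VEGFA differed by 0.27 (SE 0.07, edgeR adjusted p = 0.0258), with citrus high at 68.3, 68.7 and 73.6 CPM. This call was lost without library 1 or 2 of either group, and that of ALDOC in none of the 6 fits that left out a library. ALDOC differed by 0.41 (SE 0.08, edgeR adjusted p = 9.66e-04), from 15.9, 14.9 and 15.5 CPM in citrus high to 19.4, 21.7 and 20.4 CPM in cimicifuga high. Citrus high was the lowest of the 19 groups in ALDOC and lay below the 17.1 to 18.5 CPM of vehicle, though the citrus difference from vehicle was not called.

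With edgeR, 0 members were called at the high dose of citrus, Yijung-tang or Banhasasim-tang against vehicle, where 0.0243%, 1.14% and 1.21% of all genes were called. At an unadjusted p under 0.05 the counts were 9, 6 and 3 of 33. The share of all genes at that unadjusted p was not counted, so these and the unadjusted counts below are not a result about the members. DESeq2 called 0 members in each, with 23, 308 and 255 of all genes called. Between high and low dose, 0 members were called by edgeR for citrus, cimicifuga, bupleurum, Yijung-tang and Banhasasim-tang, with 0.0667%, 0.904%, 0.297%, 0.103% and 0.231% of all genes called. The unadjusted counts, again without a share of all genes, were 6, 8, 4, 3 and 13. DESeq2 called 2, 1, 0, 0 and 0 members, with 39, 187, 72, 26 and 152 of all genes called. Banhasasim-tang high had library 2 far from the others for several members: ALDOA read 1150, 1460 and 1150 CPM, TPI1 799, 1130 and 723 CPM, CA9 57.4, 88.7 and 55.9 CPM and HIF1A 121, 91.6 and 122 CPM. Without Banhasasim-tang high library 3 the members' count against the low dose was 10 in place of 0, and that over all genes was 2980 in place of 38. Without library 1 they were 3 and 784. Against vehicle the members' count was 2 in place of 0 without library 2, with 379 of all genes in place of 200. Between Banhasasim-tang and Yijung-tang at the high dose edgeR called 0 members, where 0.346% of all genes were called. At an unadjusted p under 0.05 there were 7, without a share of all genes. DESeq2 called 1 member, with 75 of all genes called.

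At the medium and low doses of those 5 extracts, 6 calls were made against vehicle in all. ALDOA fell in Yijung-tang at medium (-0.29) and low dose (-0.30) and in Banhasasim-tang at medium (-0.27) and low dose (-0.29), with edgeR adjusted p-values from 0.0139 to 0.0241. Its levels there were 1060 to 1140 CPM, below the 1460, 1250 and 1290 CPM of vehicle without overlap. In Banhasasim-tang CA9 fell by 0.37 at medium dose, to 55.6, 56.6 and 55.4 CPM (edgeR adjusted p = 0.0429), and HIF1A rose by 0.24 at low dose (edgeR adjusted p = 0.0431). Of all genes, 0.989% and 0.965% were called lower in Yijung-tang at medium and low dose. In Banhasasim-tang 1.72% and 1.53% were called lower and 1.39% higher at each of these doses. No member was called at the medium and low doses of citrus (0% and 0.00607% of all genes in either direction), cimicifuga (0.0303% and 0%) and bupleurum (0.406% and 0.801%). All 6 calls were lost without vehicle library 1, which was the highest of the 3 for ALDOA and CA9 and the lowest for HIF1A. For ALDOA and CA9, vehicle had the highest mean of all 19 groups. In those 4 groups the ribosomal protein gene RPLP1 also fell, by 0.64 to 0.71 on the log2 scale, and its part in the ALDOA result was not tested.

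**Figure D4:**
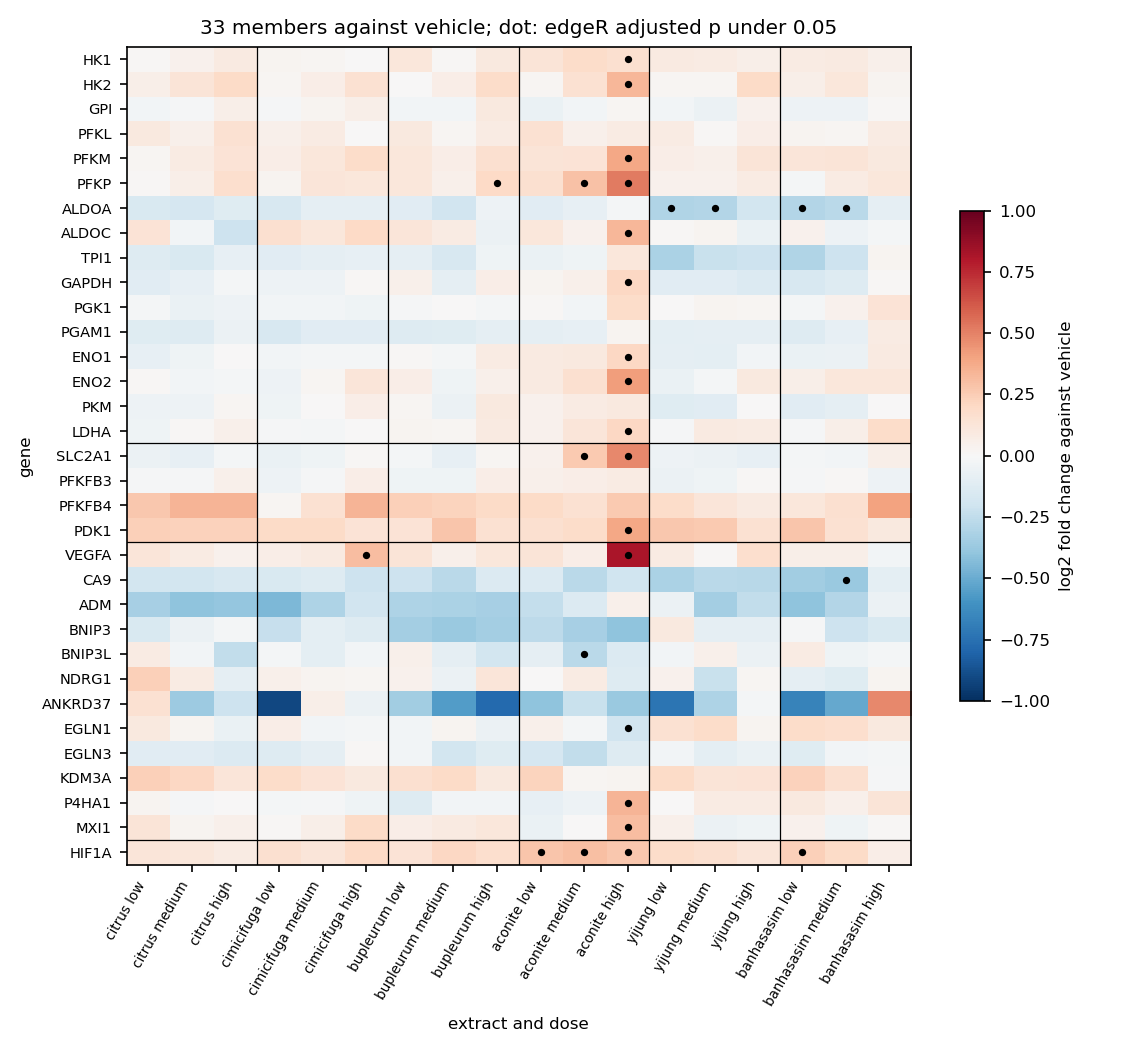
Log2 fold change of the 33 tested genes (rows, by role) against vehicle in 6 extracts at 3 doses (columns), on a colour scale from -1 to 1, with a dot where the edgeR adjusted p was under 0.05. Dots gather in the aconite high column, 16 in all, and the 18 columns share the same 3 vehicle libraries.

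The glycolytic enzymes and the other targets of hypoxia-inducible factor had different medians. Between high and low dose, where the extracts do not share samples, the median log2 fold change of the glycolytic enzymes was 0.17 in aconite, 0.12 in Banhasasim-tang, 0.07 in citrus, 0.06 in cimicifuga, 0.06 in Yijung-tang and 0.04 in bupleurum. That of the other targets was -0.01, 0.00, -0.08, 0.05, -0.04 and -0.02 in the same order, lower than the enzymes' median in these 6 comparisons. The order was not general: against vehicle at low dose the enzymes' median was -0.02 in citrus, Yijung-tang and Banhasasim-tang, and that of the other targets was 0.09, 0.02 and 0.01. Between cimicifuga and citrus at high dose the medians were 0.00 for the enzymes and 0.13 for the other targets. All tested genes had medians within 0.01 of 0 between high and low dose. The ribosomal protein genes had medians of 0.24 in aconite and 0.33 in Banhasasim-tang, both above the enzymes' medians and with 40 of 40 genes above 0, and of 0.01, -0.01, 0.10 and -0.01 in citrus, cimicifuga, Yijung-tang and bupleurum. The difference between the lists was not tested. In aconite high and Banhasasim-tang high the library with high ribosomal protein genes also had the glycolytic median above its group mean, by 0.08 and 0.14. The part of these genes or libraries in the medians was not tested.

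**Figure D5:**
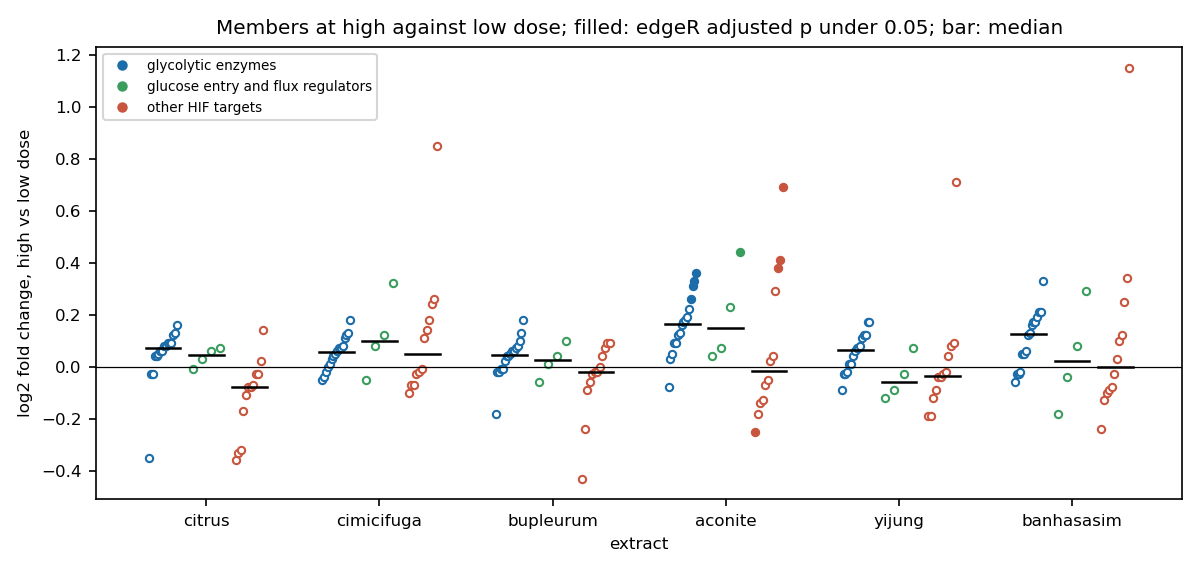
Log2 fold change between high and low dose for each tested gene, by extract and role, with the median as a bar and filled points for an edgeR adjusted p under 0.05. Filled points occur in aconite, and the glycolytic medians lie from 0.04 (bupleurum) to 0.17 (aconite).

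Bojungikgi-tang, with 1 library per dose, allows no test. It forms a library set of its own with RN7SL2 above the level of vehicle, so extract and set cannot be told apart in what follows. On the log2(CPM + 1) scale the median difference from the vehicle mean was -0.03 at high, -0.05 at medium and 0.04 at low dose over the 33 genes, beside -0.02, -0.02 and -0.00 over all tested genes. For the glycolytic enzymes it was -0.03, -0.06 and 0.00. VEGFA measured 65.7, 69.2 and 76.4 CPM at high, medium and low dose, and SLC2A1 539, 533 and 551 CPM, so the high and medium libraries of SLC2A1 lay just below the vehicle range of 540 to 563 CPM on this scaling. HIF1A measured 121, 128 and 114 CPM, above the vehicle range of 97.9 to 113 CPM. CA9 measured 57, 55.3 and 57.7 CPM, below its range of 62 to 86.4 CPM. ALDOA was likewise low, at 1120, 1070 and 1150 CPM. At each dose most of the 33 genes lay outside the vehicle range, above or below it, so these values do not set HIF1A, CA9 or ALDOA apart. The share over all genes was not counted. Among the 19 replicated groups, vehicle had the lowest mean for HIF1A and the highest for CA9 and ALDOA.

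Further genes of these pathways, from lists of related function, were read in aconite high against vehicle beside the same background. In the core of the pathway 2 of 10 tested genes were higher and 0 lower: SIAH2 (0.31) and SIAH1 (0.24), ubiquitin ligases that act on prolyl hydroxylases. Both were also higher against low dose (0.33 and 0.36) and against bupleurum high (0.35 and 0.41). Of 26 further targets, 3 were higher and 4 lower. DDIT4, an inhibitor of mTOR signalling that other stresses also induce, had the largest difference, 1.83 (SE 0.08, edgeR adjusted p = 1.36e-22), and reached 1.89 against low dose and 2.02 against bupleurum high. The lipid droplet coat gene PLIN2 rose by 0.45, PPP1R3B, a subunit that brings a phosphatase to glycogen, fell by 0.50 and WSB1 fell by 0.19.

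In the branches around glycolysis the genes named here were higher in aconite high than in vehicle. In the pentose phosphate pathway these were TKT (transketolase, 0.51), PGD (0.41) and RPE (0.31). TKT and PGD were also higher than at low dose (0.47 and 0.35), and TKT was higher than in vehicle also in aconite medium (0.23), cimicifuga high (0.26) and bupleurum high (0.22). Against bupleurum high, TKT, PGD and RPE were higher in aconite high (0.28, 0.32 and 0.24), where RPE was lost without aconite high library 2 or any 1 bupleurum high library. Among isozymes and side branches 3 of 13 were higher and 0 lower, with PCK2, the mitochondrial phosphoenolpyruvate carboxykinase, at 0.99 (edgeR adjusted p = 2.49e-12), HKDC1 at 0.39 and PGM1 at 0.24. Of 13 genes of pyruvate and lactate handling, 4 were higher and 0 lower: DLAT (0.22) and PDHA1 (0.19) of the pyruvate dehydrogenase complex, the lactate exporter gene SLC16A3 (0.26) and the kinase gene PDK3 (0.66). The calls of SIAH1, PGM1, PDHA1 and RPE against vehicle were lost without aconite high library 2, those of SIAH1 and PGM1 also without vehicle library 2, and those of PGM1 and WSB1 also without vehicle library 3. With no filter on low counts SIAH1, WSB1, PGM1, DLAT and PDHA1 were not called against vehicle.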

How the data were processed

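Messenger RNA was sequenced in 60 libraries of HT29 cells. The authors deposited 1 table of RSEM expected counts, whose values show no normalization. Per the submitters' processing notes reads were handled with STAR 2.7.3a, RSEM 1.3.3, Trim Galore 0.6.5 and FastQC 0.11.9, and the build was GRCh38. Annotation and strand setting: not given in the sources used here. RSEM can share reads between near-identical genes. The table holds 270 columns, of which 60 matched the labels by name and 210 were not used. Of the values, 8.68% were not whole and were rounded. Depth lay between 10.35 and 40.05 M counts.

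The filterByExpr function (by group) kept 16484 genes, and libraries were scaled by TMM in edgeR 4.0.16 under R 4.3.3. One quasi-likelihood fit with a mean per group took in the 57 libraries of 19 groups, with a biological coefficient of variation of 8.04%. It gave 27 comparisons: 18 groups with vehicle, the high with the low dose of 6 extracts, and 3 pairs of extracts that share a library set. Adjustment followed Benjamini and Hochberg over all genes tested in a comparison, and the threshold was 0.05. The SE was taken as the size of the log2 fold change over the root of its F statistic. CPM use TMM-scaled totals, and levels per kb use union exon lengths of GENCODE 29. For Bojungikgi-tang, log2(CPM + 1) was compared with the vehicle mean. In simulated counts of aconite high against vehicle over 16484 genes, the fit recovered 27 of 50 genes changed 1.25-fold, 46 of 50 changed 1.5-fold and all 50 changed 2-fold, with 7 false calls. The simulation gave each gene the same spread in every group and changed only genes above a floor in level. It had no library that stood apart, as aconite high library 2 did. These counts therefore do not show what the fit recovers or falsely calls in the real aconite high group.

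The members and lists were chosen with earlier results of these data known. All members could be named. Values per library are given for members past the threshold in aconite high against vehicle or within a set, taken by smallest adjusted p, and for HIF1A, VEGFA, CA9, SLC2A1, HK2 and LDHA; further values per library illustrate single libraries and were chosen after they were seen. From each related list up to 4 called genes with the smallest adjusted p were named, except for a result in the pentose phosphate list that is not reported here. Alternatives were other size factors, no filter, DESeq2 1.42.0, a fit of the compared groups alone, the replicate number as a block, and leaving out libraries. The test of the difference between dose responses was added after the data were seen. The series' design text gives 2% DMSO and other agents; those are not analysed here.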

Additional observations from a re-analysis of the deposited data

Results flagged for a closer look

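The change from low to high dose differed between aconite and bupleurum, by a test of that difference itself in 1 fit with edgeR, for 4 members. For VEGFA the change was larger in aconite by 0.71 on the log2 scale (SE 0.09, adjusted p = 7.97e-07) and for SLC2A1 by 0.40 (SE 0.06, adjusted p = 1.08e-05). For ALDOC it was larger by 0.40 (SE 0.11, adjusted p = 0.0359), where bupleurum went from 19.9, 18.5 and 19.7 CPM at low dose to 16.9, 16.9 and 17.5 CPM at high dose and aconite from 19.7, 18.5 and 19.4 CPM to 19.9, 26.3 and 21.6 CPM. For MXI1 it was larger by 0.34 (SE 0.09, adjusted p = 0.0385). The ALDOC and MXI1 results were each lost in 8 of 12 fits that left out 1 library, among them those without aconite high library 2, which has the highest aconite value of both genes. VEGFA and SLC2A1 were lost in 0 of 12.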

How the results depend on the processing

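Among the genes called in the main fit and followed through the alternatives, no direction reversed. Genes that were not called were not checked for direction. In 1 alternative each fit held the compared groups alone and took the spread from them. For aconite high, member calls fell from 16 to 1 against vehicle (VEGFA, edgeR adjusted p = 0.0328). They fell from 9 to 0 against low dose and from 8 to 0 against bupleurum high. Calls over all genes were 181, 99 and 112 there, where the main fit had 1414 higher and 1201 lower against vehicle. Aconite medium against vehicle kept SLC2A1, PFKP and HIF1A and lost BNIP3L, with 549 of all genes called. Member calls fell from 1 to 0 in aconite low, cimicifuga high and bupleurum high against vehicle, with 76, 94 and 161 of all genes. At the medium and low doses of the other 5 extracts they fell from 6 to 0. Cimicifuga high against low dose went from 0 to 1, with 241 of all genes in place of 149. Why these counts changed was not tested. With no filter on low counts, aconite high had 11 member calls in place of 16 against vehicle (HK1, GAPDH, ENO1, LDHA and EGLN1 lost), 8 in place of 9 against low dose (EGLN1 lost) and 6 in place of 8 against bupleurum high (PFKM and MXI1 lost), and BNIP3L was lost in aconite medium. Calls over all genes in these 4 comparisons were 2172, 1979, 1848 and 1142 with no filter. The difference between dose responses was then not called for ALDOC and MXI1. Other counts with no filter were 0 for bupleurum high (788 of all genes) and 1 for Yijung-tang high against vehicle (490 of all genes). They were 3 for Banhasasim-tang high against low (1472 of all genes, 38 in the main fit) and 1 for cimicifuga against citrus (187 of all genes). For the medium and low doses the count was 10, and calls over all genes were not counted for that sum in any alternative. DESeq2 gave 2 for cimicifuga high against vehicle (309 of all genes) and 2 and 1 for citrus and cimicifuga high against low (39 and 187 of all genes). It gave 1 for Banhasasim-tang against Yijung-tang (75 of all genes) and 11 for the medium and low doses. Without the 4 libraries that stood apart, high against low dose gave 3 for citrus, 2 for cimicifuga and 1 each for bupleurum, Yijung-tang and Banhasasim-tang. Over all genes the counts were 123, 450, 127, 121 and 9 in the same order.

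Leaving out each library gave 11 to 16 calls in aconite high against vehicle, 7 to 14 against low dose and 6 to 12 against bupleurum high. Over all genes these fits called 1819 to 3000, 1074 to 2995 and 891 to 3079. Aconite gave 2 to 6 at its medium and 0 to 1 at its low dose against vehicle, with 394 to 776 and 81 to 246 of all genes. Against vehicle the ranges were 0 to 1 for cimicifuga and bupleurum high (117 to 179 and 103 to 240 of all genes) and 0 to 2 for Banhasasim-tang high (75 to 379). They were 0 for citrus and Yijung-tang high (0 to 5 and 60 to 254 of all genes). Between high and low dose they were 0 to 1 for citrus (2 to 11 of all genes) and 0 to 10 for Banhasasim-tang (0 to 2980). They were 0 for cimicifuga, bupleurum and Yijung-tang (77 to 107, 22 to 34 and 4 to 32 of all genes). They were 1 to 2 for cimicifuga against citrus (73 to 90 of all genes) and 0 to 2 for Banhasasim-tang against Yijung-tang (34 to 433 of all genes). For the medium and low doses they were 0 to 11, with 0 without vehicle library 1, 11 without vehicle library 3 and 10 without bupleurum medium library 2. The aconite medium count of 2 came without vehicle library 1, and the Banhasasim-tang against Yijung-tang count of 2 without Banhasasim-tang high library 3. In 0 of 27 comparisons were all 3 correlations between same-numbered samples above 0.1, so the main fit did not pair samples by number. In citrus and cimicifuga the number did mark a difference. RN7SL2 lay at 67.1 to 113 CPM in replicate 3 and at most at 9.9 CPM in replicates 1 and 2. The main fit held no term for this, and the replicate block was run as an alternative. With the replicate block, aconite high against vehicle had 16 calls (2678 of all genes). MXI1 was lost against bupleurum high (edgeR adjusted p = 0.0505) and BNIP3L in aconite medium against vehicle (edgeR adjusted p = 0.0503). Cimicifuga high against low dose then had 1 in place of 0, with 161 of all genes. Where no cause is named, the cause was not tested. At the lowest levels, such as ANKRD37 with 4 to 39 counts per library, depth limits what could be called.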
